A study of Mus musculus with 37 samples.

Results

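A set of 30 genes of oligodendrocytes and myelin was followed across the 37 temporal lobe arrays of a mouse study of Wfs1, the gene mutated in Wolfram syndrome, whose protein sits in the endoplasmic reticulum membrane. They comprise 11 proteins of the myelin sheath, 4 enzymes of lipid and acetate metabolism, 6 transcription factors, 2 receptors of progenitor cells and 7 other genes expressed in the lineage. Each gene was read from the probe set with a single gene symbol and the highest mean over all 37 arrays, and 29 of the 30 could be measured in this way, among 18193 genes in all. The exception was Trf, which encodes transferrin and shares its only probe set with another symbol, so that no value is given for it. All 29 measured members lay above the filter on low signal, which left 13078 genes for testing.

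The arrays held total RNA from dissected mouse temporal lobe in 4 groups: 9 arrays of wild-type mice of the strain labelled C57 (C57 WT), 9 of Wfs1 knockout mice of the same strain (C57 KO), 9 of wild-type mice of the strain labelled 129SV (129 WT) and 10 of Wfs1 knockout mice of that strain (129 KO). The series' design text names the strains C57B6 and 129S6 instead. No treatment, sex, age, litter or construction of the knockout allele is given in the sources used here. Arrays are named by the number in their title, and whether each came from a separate animal is not stated, so p-values measure the spread between these samples.

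Oligodendrocytes wrap axons of the central nervous system in myelin, a stack of lipid-rich membrane that is held compact by basic protein and sealed by tight junction and adhesion proteins. They arise from progenitor cells that carry the receptor encoded by Pdgfra and the proteoglycan encoded by Cspg4, under the transcription factors Olig2, Olig1 and Sox10, and Myrf then drives the myelin genes of mature cells. In temporal lobe tissue the white matter tracts under the cortex hold most of this RNA. The arrays measured whole tissue, in which fewer oligodendrocytes and less RNA per oligodendrocyte cannot be told apart.

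The stretches of 250 bases before the annotated start of 4 members are shown because Apod, Mobp and Ermn had the 3 largest mean strain differences among the members, and Mog was the reference against which the others were followed from array to array. They come from RefSeq on build GRCm38.p6 and read 5′ to 3′ along the gene's strand. They lie at chr9:120149492-120149741 (Mobp, plus strand), chr16:31314809-31315058 (Apod, minus strand), chr2:58052865-58053114 (Ermn, minus strand) and chr17:37023399-37023648 (Mog, minus strand), each directly before the annotated start of the gene and outside its exons. Capitals mark ACAAAG, the core of sites bound by SOX proteins such as Sox10, or its reverse complement CTTTGT, and in Mog the reverse complement of CTGGTAC, a form of the site bound by Myrf.
Mobp: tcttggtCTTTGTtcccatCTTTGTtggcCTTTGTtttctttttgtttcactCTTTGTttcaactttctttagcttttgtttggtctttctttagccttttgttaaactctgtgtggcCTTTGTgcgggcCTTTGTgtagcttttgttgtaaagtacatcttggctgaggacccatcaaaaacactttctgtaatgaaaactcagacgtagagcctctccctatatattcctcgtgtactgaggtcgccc
Apod: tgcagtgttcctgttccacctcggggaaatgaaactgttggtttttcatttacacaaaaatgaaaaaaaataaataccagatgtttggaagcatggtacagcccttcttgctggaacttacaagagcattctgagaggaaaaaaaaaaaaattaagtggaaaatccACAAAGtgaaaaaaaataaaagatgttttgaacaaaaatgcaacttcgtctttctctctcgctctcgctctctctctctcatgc
Ermn: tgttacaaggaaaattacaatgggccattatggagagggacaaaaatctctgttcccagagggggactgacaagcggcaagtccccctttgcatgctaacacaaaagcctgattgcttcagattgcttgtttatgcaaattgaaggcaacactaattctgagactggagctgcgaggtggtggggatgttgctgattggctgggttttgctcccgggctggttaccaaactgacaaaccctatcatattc
Mog: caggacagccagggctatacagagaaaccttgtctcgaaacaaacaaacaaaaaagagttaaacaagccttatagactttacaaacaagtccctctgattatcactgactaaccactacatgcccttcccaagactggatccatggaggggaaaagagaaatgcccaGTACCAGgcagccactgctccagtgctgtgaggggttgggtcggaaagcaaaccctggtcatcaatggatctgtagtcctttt
Mobp held 6 copies of CTTTGT, more than any other of the 32851 RefSeq mouse promoters of this length, of which it was the only one with 6 or more. Apod held 1 copy of ACAAAG, and Ermn held none of the motifs searched on either strand. A RefSeq promoter was found and printed or counted for 22 of the 30 members, with 33 entries because some genes have several starts. ACAAAG on either strand stood in 10 of these 33 (30.3%), against 16.5% of all promoters of this length. The 10 entries belong to Apod, Cnp, Gjb1, Mag, Mobp, Opalin, Plekhb1 and Tspan2. The E-box CAGCTG stood in 3 of 33 (9.1%, against 13.0%), CTGGCAC in 3 of 33 (9.1%, against 4.2%) and CTGGTAC in 1 of 33 (3.0%, against 1.8%). The CTGGCAC entries belong to Cnp and Mag. Entries 1 and 2 of Mag overlap, so that the same CTTTGT and the same CTGGCAC were counted in both. Entries of a gene are therefore not separate promoters. The last letters of CAGCTG are the first of CTGGCAC and CTGGTAC, so that matches of these can overlap. A match describes the letters only.

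Wfs1 itself separated the genotypes on every array. On the log2 scale the knockout arrays averaged 3.03 ± 0.26 (SD, n = 9) in C57, where the wild type averaged 9.32 ± 0.17 (SD, n = 9), and 3.11 ± 0.28 (SD, n = 10) in 129, where it averaged 9.33 ± 0.12 (SD, n = 9). The lowest wild-type array (9.11) thus lay far above the highest knockout array (3.6). Array medians ran from 4.3 to 4.36 over the 37 arrays. A set of 40 genes that are not members divided the arrays into 19 with the lower and 18 with the higher numbers within each group. These are called array set 1 and array set 2, and 932 genes (7.13%) differed between them at an adjusted p under 0.05 (limma). The 40 genes were picked for splitting these same arrays and were tested too, so that this count is partly fixed by their choice. No member was among the 932, with Sox10 the nearest (-0.13 in set 2, adjusted p = 0.120). The 3 arrays 129 KO 53, 129 KO 59 and 129 WT 73 were the least like the rest of their groups, and results are given without them where that matters. The defining markers of oligodendrocytes were well above the filter of 3.6 in every group: the probe set of Mbp, myelin basic protein, had group means from 12.23 to 12.44 and that of Mog, a glycoprotein on the outermost layer of myelin, from 5.67 to 5.99.

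Over all 29 members, the mean deviation from each gene's own mean was highest in C57 WT (0.12 ± 0.17, SD, n = 9), followed by C57 KO (0.03 ± 0.21, SD, n = 9), 129 WT (-0.04 ± 0.09, SD, n = 9) and 129 KO (-0.10 ± 0.12, SD, n = 10). The 11 myelin proteins followed the same order, at 0.16 ± 0.24, 0.03 ± 0.30, -0.06 ± 0.13 and -0.13 ± 0.18. The ranges of neighbouring groups overlapped in both cases.

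The spread of the myelin proteins between arrays of a group was wider than the distance between groups. In C57 KO their score ran from -0.43 (array 3) to 0.47 (array 1), in C57 WT from -0.17 to 0.49, in 129 KO from -0.35 to 0.15 and in 129 WT from -0.29 to 0.05. The lipid enzymes spread similarly, from -0.43 to 0.37 in C57 KO, and their mean was 0.10 in C57 WT, against -0.05 in C57 KO, -0.01 in 129 WT and -0.04 in 129 KO. Array 3 was the lowest and array 1 the highest C57 KO array in both groups of genes. The transcription factors spread less, from -0.16 to 0.34 in C57 KO and from -0.14 to 0.11 in 129 WT, and the progenitor receptors stayed between -0.21 and 0.14 on all 37 arrays. These scores are descriptions of the arrays and were not tested.

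**Figure D1:**
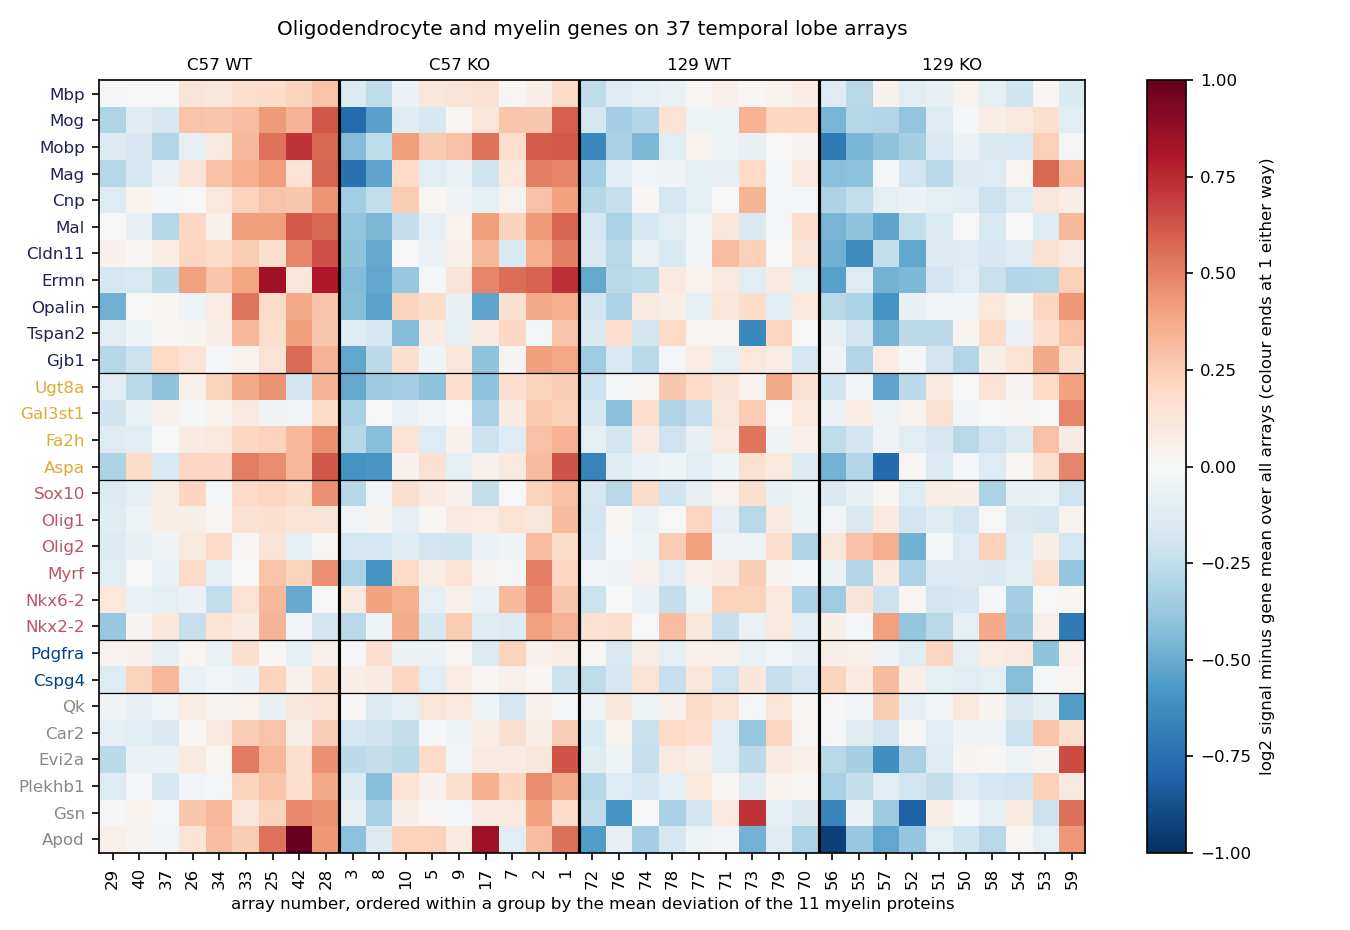
Each row is a measured member and each column an array, grouped as C57 WT, C57 KO, 129 WT and 129 KO and ordered within a group by the mean deviation of the 11 myelin proteins. Colour gives the log2 signal minus the gene's mean over all 37 arrays, from blue (lower) to red (higher). The myelin proteins and lipid enzymes in the upper rows shade together from array to array, while Pdgfra, Cspg4 and Qk do not follow them.

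The comparison of knockout with wild type asked whether loss of Wfs1 changes these genes in either strain. No member passed an adjusted p of 0.05 (limma, Benjamini-Hochberg over 13078 genes) in C57, where 14 genes (0.107%) passed in all, or in 129, where 1 gene (0.00765%) passed. None passed in the mean of both strains, where 3 genes (0.0229%) passed, or in the test of whether the knockout effect differed between strains, where 2 genes (0.0153%) passed. At an unadjusted p under 0.05, limma gave 1 member in C57, 0 in 129, 2 in the mean of both strains and 1 in the difference between strains. Of all 13078 genes, 833, 279, 647 and 437 had such a p in the same order.

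Most members had a slightly lower mean in the knockout, by less than the test could tell from the spread between arrays. In C57, 23 of 29 were lower, with a median difference of -0.10 against 0.021 for all genes tested. In 129, 25 of 29 were lower, with a median of -0.05 against -0.004 for all genes. In both strains at once, 20 of 29 members (69.0%) were lower in the knockout, against 21.1% of all genes and 30 of 66 other genes of myelin and the lineage (45.5%). The members vary together from array to array, as shown further on, so that this share is not 20 separate observations.

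Among the myelin proteins, Mog ran from 5.5 to 6.42 (median 6.09) in C57 WT and from 5.03 to 6.4 (median 5.82) in C57 KO. In 129 it ran from 5.46 to 6.15 (median 5.75) in the wild type and from 5.34 to 5.96 (median 5.69) in the knockout. Knockout and wild-type arrays overlapped over most of their range in both strains, and the differences were -0.22 (SE 0.13, adjusted p = 0.865) and -0.13 (SE 0.13, adjusted p = 1.0, limma).

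Mag, an adhesion protein that faces the axon, ran from 7.41 to 8.28 (median 7.84) in C57 WT and from 6.95 to 8.21 (median 7.63) in C57 KO, with 7.35 to 7.9 (median 7.66) in 129 WT and 7.28 to 8.27 (median 7.56) in 129 KO. Cnp, an enzyme of the cytoplasmic channels of myelin, ran from 10.84 to 11.41 (median 11.07), 10.62 to 11.38 (10.99), 10.68 to 11.31 (10.95) and 10.66 to 11.08 (10.87) in the same order of groups. Both genes overlapped between the genotypes in each strain. Cldn11, the claudin of the tight junctions between myelin layers, was lower by nearly the same amount in both strains, at -0.21 (SE 0.12) in C57 and -0.22 (SE 0.11) in 129. Its mean over both strains was -0.22 (SE 0.08, unadjusted p = 0.0103, limma), which did not pass the adjustment (adjusted p = 0.786). Mobp, a small basic protein of compact myelin, went the other way in C57, at 0.07 (SE 0.14).

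Of the lipid enzymes, Fa2h, which makes the hydroxylated fatty acids of myelin lipids, ran from 7.37 to 7.96 (median 7.6) in C57 WT and from 7.07 to 7.84 (median 7.37) in C57 KO, with 7.29 to 8.03 (median 7.46) in 129 WT and 7.22 to 7.79 (median 7.34) in 129 KO. Its mean knockout difference over both strains was -0.15 (SE 0.07, unadjusted p = 0.0384, adjusted p = 0.982, limma). Ugt8a, which makes galactosylceramide, differed by -0.19 (SE 0.12) in C57 and -0.12 (SE 0.12) in 129. Ugt8a ran from 7.3 to 8.15 (median 7.75) in C57 WT, 7.19 to 7.95 (median 7.36) in C57 KO, 7.49 to 8.08 (median 7.83) in 129 WT and 7.17 to 8.1 (median 7.72) in 129 KO. The ranges of knockout and wild type overlapped in both strains for both enzymes, and each knockout group reached below the lowest wild-type array. Gal3st1, which sulphates that lipid, had a knockout difference of -0.02 (SE 0.09) in C57 and 0.12 (SE 0.08) in 129.

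Aspa, which releases acetate from N-acetylaspartate, had the lowest C57 knockout difference of all members, at -0.23 (SE 0.14), and -0.01 (SE 0.14) in 129. It ran from 5.77 to 6.7 (median 6.29) in C57 WT and from 5.48 to 6.71 (median 6.12) in C57 KO, and from 5.41 to 6.23 (median 6.02) in 129 WT and 5.3 to 6.57 (median 6.0) in 129 KO. Its difference between the strains' knockout effects was -0.22 (SE 0.20, adjusted p = 0.999, limma).

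Nkx6-2, a homeobox factor of maturing oligodendrocytes, was the transcription factor with the largest difference and the only member with an unadjusted p under 0.05 in C57. It ran from 3.49 to 4.33 (median 3.94) in C57 WT and from 3.9 to 4.48 (median 4.27) in C57 KO, a difference of 0.24 (SE 0.09, unadjusted p = 0.0121, adjusted p = 0.601, limma). In 129 it ran from 3.69 to 4.23 (median 3.95) in the wild type and from 3.64 to 4.13 (median 3.91) in the knockout, a difference of -0.08 (SE 0.09). The 2 differences were 0.32 apart (SE 0.13, unadjusted p = 0.0178), which did not pass over all genes (adjusted p = 0.999, limma). Its signal lay near the filter of 3.6 on many arrays.

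The other factors differed less. Sox10 was at -0.10 (SE 0.08) in C57 and -0.03 (SE 0.08) in 129, Olig1 at 0.01 (SE 0.06) and -0.05 (SE 0.06), and Olig2 at -0.06 (SE 0.09) and -0.01 (SE 0.09). Myrf, the regulator of myelin genes in mature cells, ran from 6.88 to 7.45 (median 7.0) in C57 WT, 6.4 to 7.51 (median 7.07) in C57 KO, 6.88 to 7.24 (median 7.02) in 129 WT and 6.61 to 7.15 (median 6.86) in 129 KO. Its knockout difference was -0.07 (SE 0.10) in C57 and -0.16 (SE 0.09, adjusted p = 1.0, limma) in 129. Nkx2-2, a factor of committed progenitors, was at 0.08 (SE 0.12) and -0.14 (SE 0.12).

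Neither progenitor receptor passed between genotypes. Pdgfra ran from 8.0 to 8.26 (median 8.12) in C57 WT, 7.96 to 8.32 (median 8.11) in C57 KO, 7.95 to 8.17 (median 8.07) in 129 WT and 7.7 to 8.31 (median 8.15) in 129 KO, with knockout differences of 0.02 (95% confidence interval -0.10 to 0.14) and 0.01 (-0.10 to 0.13). Cspg4 ran from 5.41 to 5.87 (median 5.58), 5.32 to 5.74 (median 5.59), 5.28 to 5.67 (median 5.37) and 5.11 to 5.85 (median 5.54) in the same order, with differences of -0.06 (SE 0.08) and 0.09 (SE 0.08). For all members together, no bound of a 95% confidence interval of the knockout difference lay farther from 0 than 0.52 in C57 or 0.45 in 129.

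All 8 measured markers of striatal neurons had a lower mean in the knockout in both strains, with a median difference of -0.40 in C57, where all 8 had an unadjusted p under 0.05, and of -0.16 in 129, where none had. Of all 13078 genes, 833 in C57 and 279 in 129 had an unadjusted p under 0.05 (limma). None of the 8 passed the adjustment in either strain or in the mean of both (limma). Their mean log2 signal per array ran from 8.18 to 9.27 in C57 WT and 7.93 to 8.96 in C57 KO, and from 8.39 to 8.96 in 129 WT and 8.06 to 8.81 in 129 KO. Their part in the members' differences was not tested.

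**Figure D2:**
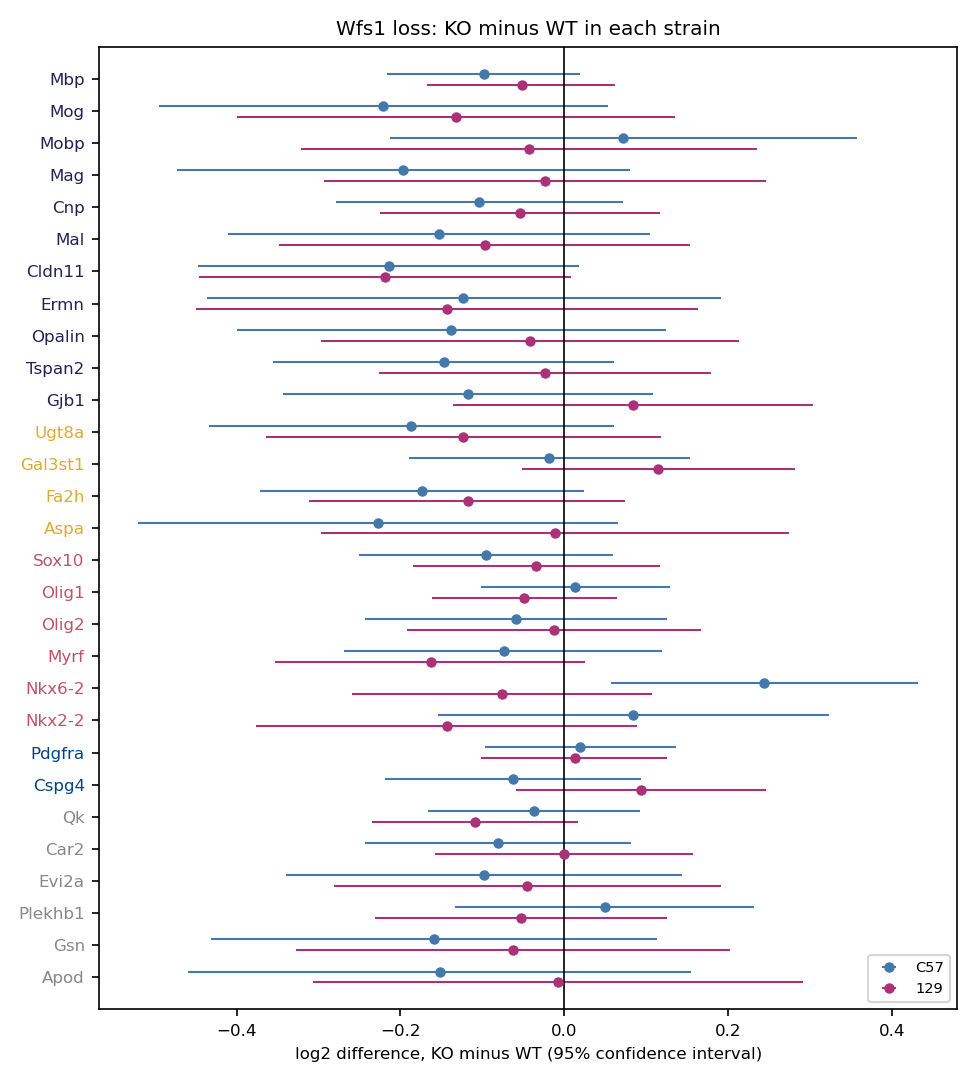
Points give the log2 difference of knockout minus wild type for each measured member, in C57 (blue) and in 129 (purple), and lines give the 95% confidence interval from limma. Most points lie left of 0, and all intervals except that of Nkx6-2 in C57 include 0.

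The comparison of strains asked how far the temporal lobe of 129 mice differs from that of C57 mice in these genes, in each genotype. Averaged over both genotypes, 6 of 29 members (20.7%) were lower in 129 and none was higher at an adjusted p under 0.05 (limma), where 955 of all 13078 genes (7.3%) passed in either direction. They were Apod, Mobp, Ermn, Plekhb1, Mbp and Olig1, that is 3 of 11 myelin proteins, 0 of 4 lipid enzymes, 1 of 6 transcription factors, 0 of 2 progenitor receptors and 2 of 6 other members. The median difference of all members was -0.13, against 0.005 for all genes tested, and 25 of 29 were lower.

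In the wild type alone, 1 member passed (Apod), where 2.06% of all genes passed, 24 of 29 were lower and the median was -0.17. In the knockout alone, 1 member passed (Nkx6-2), where 3.06% of all genes passed, 25 of 29 were lower and the median was -0.11. The share of members called in each genotype was thus 3.45%, near the share of all genes. The 2 comparisons use different arrays, and 22 of 29 members (75.9%) were lower in 129 in both, against 28.3% of all genes tested and 35 of 66 other genes of myelin and the lineage (53.0%). Because the members vary together from array to array, this share is not 22 separate observations.

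Apod encodes apolipoprotein D, a lipid carrier made by oligodendrocytes and other glia. It ran from 8.47 to 9.77 (median 8.75) in C57 WT and from 7.94 to 8.47 (median 8.33) in 129 WT. In the knockouts it ran from 8.09 to 9.35 (median 8.73) in C57 and from 7.57 to 8.93 (median 8.26) in 129. In the wild types the groups met only at their edges, with 8 of 9 arrays of 129 below the lowest C57 array, whereas in the knockouts 9 of 10 arrays of 129 lay below the C57 median and 2 below its lowest array. The difference was -0.57 (SE 0.15, 1.48-fold lower, adjusted p = 0.0367) in the wild type, -0.42 (SE 0.15, adjusted p = 0.128) in the knockout and -0.50 (SE 0.11, 1.41-fold lower, adjusted p = 0.00144, limma) in the mean. The wild-type call was lost without any 1 of 9 arrays (C57 WT 25, 28, 34 or 42, or 129 WT 70, 72, 73, 74 or 78), with an adjusted p of up to 0.0867, and the call in the mean was kept without each of the 37 in turn.

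Mobp ran from 9.11 to 10.13 (median 9.5) in C57 WT and from 8.76 to 9.44 (median 9.33) in 129 WT. In the knockouts it ran from 8.97 to 10.02 (median 9.7) in C57 and from 8.7 to 9.64 (median 9.25) in 129. All 9 wild-type and all 10 knockout arrays of 129 lay below the C57 median of their genotype, while the ranges overlapped. The difference was -0.35 (SE 0.14, adjusted p = 0.252) in the wild type, -0.47 (SE 0.14, adjusted p = 0.0513) in the knockout and -0.41 (SE 0.10, 1.33-fold lower, adjusted p = 0.00506, limma) in the mean, a call kept without each single array.

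Ermn encodes ermin, a cytoskeletal protein of myelinating cells. It ran from 6.23 to 7.33 (median 6.77) in C57 WT, 5.97 to 7.23 (median 6.62) in C57 KO, 5.98 to 6.59 (median 6.4) in 129 WT and 5.95 to 6.73 (median 6.24) in 129 KO. The C57 arrays were spread over more than 1 log2 unit in each genotype and the ranges of the strains overlapped. The mean difference was -0.36 (SE 0.11, 1.29-fold lower, adjusted p = 0.029, limma), and 18 of 19 arrays of 129 lay below the C57 median. The call was lost without C57 KO 1, 2 or 7, C57 WT 25 or 28, or 129 WT 72, with an adjusted p of up to 0.0529. The call of Ermn was also lost when its probe sets were averaged and within array set 2 alone.

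Mbp had the smallest spread of the myelin proteins by its brightest probe set, while its probe sets 1419646_a_at and 1425263_a_at, given further on, spread more. It ran from 12.3 to 12.6 (median 12.45) in C57 WT, 12.06 to 12.51 (median 12.38) in C57 KO, 12.06 to 12.39 (median 12.33) in 129 WT and 12.04 to 12.36 (median 12.22) in 129 KO. All 19 arrays of 129 lay below the C57 median, by a mean difference of -0.14 (SE 0.04, 1.1-fold lower, adjusted p = 0.0281, limma). The call was lost without C57 WT 28 or 129 WT 72 (adjusted p of up to 0.0532). The call of Mbp was also lost when its probe sets were averaged and within each array set alone. Mal, a raft protein of compact myelin, and Cldn11 had larger mean differences, -0.26 (SE 0.09, adjusted p = 0.0699) and -0.23 (SE 0.08, adjusted p = 0.0757), that did not pass.

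The other myelin proteins were lower in 129 without passing. Mean differences were -0.16 for Cnp (adjusted p = 0.106), -0.14 for Mog (0.497), -0.12 for Mag (0.626), -0.11 for the tetraspanin Tspan2 (0.512), -0.09 for Gjb1, a gap junction connexin (0.658), and -0.07 for Opalin (0.808, limma). All 11 thus had a lower mean in 129 when averaged over genotypes, and 10 of 11 in the knockouts alone, where Gjb1 was at 0.01 (SE 0.11).

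Of the lipid enzymes, none passed, and 2 had a lower and 2 a higher mean in 129 when averaged over genotypes; in the wild type 3 of 4 were lower. Aspa was at -0.22 (SE 0.10, adjusted p = 0.23), Fa2h at -0.09 (SE 0.07, adjusted p = 0.609), Gal3st1 at 0.01 (SE 0.06, adjusted p = 0.954) and Ugt8a at 0.09 (SE 0.09, adjusted p = 0.712, limma). The 95% confidence interval for Ugt8a ran from -0.09 to 0.26.

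Among the transcription factors, Olig1 passed in the mean. It ran from 9.33 to 9.62 (median 9.51) in C57 WT, 9.37 to 9.77 (median 9.53) in C57 KO, 9.18 to 9.67 (median 9.4) in 129 WT and 9.26 to 9.55 (median 9.32) in 129 KO, with 16 of 19 arrays of 129 below the C57 median. The difference was -0.13 (SE 0.04, 1.09-fold lower, adjusted p = 0.0406, limma), and its call was lost without any 1 of 20 arrays (C57 KO 1, 2, 7, 9 or 17, C57 WT 25, 28, 33 or 42, 129 KO 50 to 55, or 129 WT 70 to 74), with an adjusted p of up to 0.0739. The call of Olig1 was also lost with no filter, within array set 2 alone and without the 3 arrays least like their groups. Olig2, its close relative, ran from 5.93 to 6.26 (median 6.08), 5.87 to 6.38 (median 5.95), 5.77 to 6.48 (median 6.03) and 5.59 to 6.43 (median 6.09) in the same order, a difference of 0.04 (SE 0.06, adjusted p = 0.854). Sox10 ran from 7.12 to 7.71 (median 7.44), 6.97 to 7.55 (median 7.3), 6.98 to 7.44 (median 7.18) and 6.94 to 7.33 (median 7.18), a difference of -0.14 (SE 0.05, adjusted p = 0.11). Myrf was at -0.11 (SE 0.07, adjusted p = 0.415) and Nkx2-2 at -0.05 (SE 0.08, adjusted p = 0.849).

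Nkx6-2 was lower in 129 in the knockouts, by 0.31 on the log2 scale (a difference of -0.31, SE 0.09, 1.24-fold lower, adjusted p = 0.0473, limma), with all 10 arrays of 129 KO below the C57 KO median and 5 below its lowest array. In the wild types the difference was 0.01 (SE 0.09). The call in the knockouts was lost without any 1 of 19 arrays (C57 KO 1, 2, 7, 8 or 10, C57 WT 26, 28, 29 or 40, 129 KO 50, 51, 54, 56, 57 or 58, or 129 WT 74, 76, 77 or 79), with an adjusted p of up to 0.115. The call of Nkx6-2 was also lost with no filter, quantile normalization, median centring, a trended and robust variance, and only the groups compared. It was lost within each array set alone too (adjusted p of up to 0.607, limma).

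The progenitor receptors Pdgfra and Cspg4 were at -0.03 (SE 0.04, adjusted p = 0.78) and -0.10 (SE 0.05, adjusted p = 0.351). Of the other members, Plekhb1, a pleckstrin homology protein, was lower by 0.21 on the log2 scale (-0.21, SE 0.06, 1.15-fold lower, adjusted p = 0.0359, limma). It ran from 9.47 to 10.01 (median 9.62) in C57 WT, 9.2 to 10.1 (median 9.79) in C57 KO, 9.34 to 9.73 (median 9.53) in 129 WT and 9.3 to 9.87 (median 9.45) in 129 KO, and its call was lost without any 1 of 14 arrays (C57 KO 1, 2, 7 or 17, C57 WT 25, 28, 33 or 42, 129 KO 51, 55 or 56, or 129 WT 72, 74 or 76), with an adjusted p of up to 0.065. Gsn, the actin-severing protein gelsolin, ran from 7.1 to 7.6 (median 7.34), 6.8 to 7.52 (median 7.19), 6.53 to 7.84 (median 6.98) and 6.31 to 7.67 (median 7.05), a difference of -0.25 (SE 0.09, adjusted p = 0.122). Evi2a, a membrane protein, was at -0.16 (adjusted p = 0.343), Car2, a carbonic anhydrase, at -0.05 (0.756), and Qk, an RNA-binding protein that controls splicing in myelinating cells, at 0.00 (0.991).

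**Figure D3:**
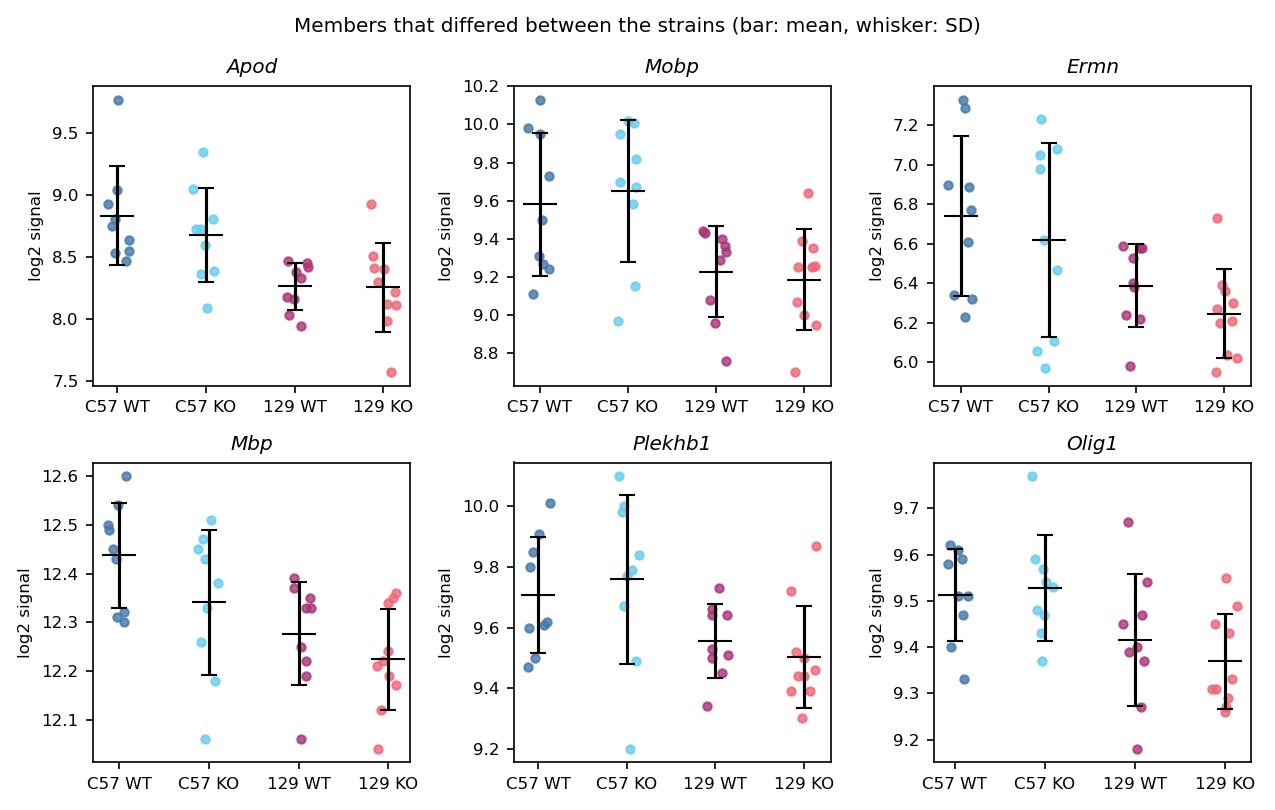
Each panel shows 1 of the 6 members called lower in 129 in the mean of both genotypes, with the log2 signal of every array by group; the bar is the mean and the whisker the SD, over 9 arrays (10 in 129 KO). The vertical axes do not start at 0 and differ between panels. From 16 (Olig1) to 19 (Mbp and Mobp) of the 19 arrays of 129 lie below the median of all C57 arrays, and in Apod 8 of 9 wild-type arrays of 129 lie below the lowest C57 WT array.

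**Figure D4:**
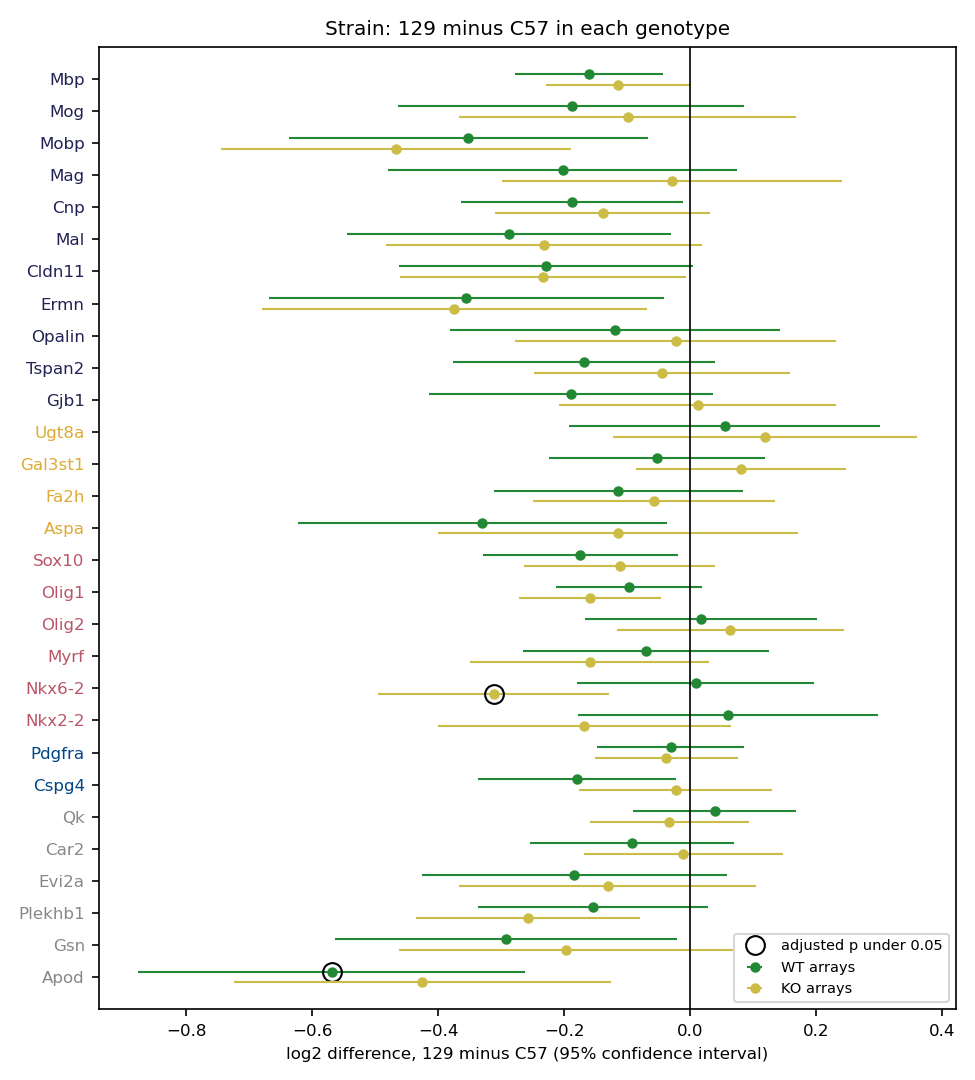
Points give the log2 difference of 129 minus C57 for each measured member, among wild-type arrays (green) and among knockout arrays (yellow), and lines give the 95% confidence interval from limma. Open circles mark an adjusted p under 0.05, which only Apod in the wild type and Nkx6-2 in the knockout reached. All myelin proteins except Gjb1 in the knockouts lie left of 0.

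These strain counts depended on single arrays and on the array set. The count of 6 fell to 3 without C57 KO 1, 2 or 7 or C57 WT 25, and to 2 without C57 WT 28 or 129 WT 72, and rose to 9 without C57 KO 3 or 129 KO 59 and without the 3 arrays least like their groups. Within array set 1 alone it was 3 (Apod, Ermn and Olig1), and within array set 2 alone it was 0. In set 2 the difference of Apod was -0.53 and that of Mobp -0.42, as large as over all arrays, whereas that of Ermn was -0.12 (against -0.60 in set 1) and that of Olig1 -0.01 (against -0.23). With the array set as a block the same 6 members passed. With the difference between the 3 prime and 5 prime actin control probes, a measure of RNA integrity, as a covariate 9 passed, the same 6 and Cnp (adjusted p = 0.035), Gsn (0.0396) and Sox10 (0.0147, limma), whereas the count in the wild type alone was then 0.

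Some markers of other cell types also differed between the strains, where 7.3% of all genes passed in the mean of both genotypes. Of 8 microglia markers, 4 were lower in 129 in the mean (limma, adjusted p under 0.05) and the list's median was -0.16, with mean log2 signals per array from 6.91 to 7.39 in C57 WT, 6.94 to 7.23 in C57 KO, 6.68 to 7.13 in 129 WT and 6.82 to 7.4 in 129 KO. Of 8 astrocyte markers, 2 were lower, with a median of -0.09 and signals from 8.56 to 8.84, 8.6 to 8.83, 8.55 to 8.79 and 8.54 to 8.77. None of 7 vessel markers (median -0.13) and none of 8 neuron markers (median -0.02) passed. Of 5 markers of thalamus and fibre-rich regions, 4 had a lower mean in 129 (median -0.13) and 1 passed, Zic1, a zinc finger transcription factor (-0.45, adjusted p = 0.00051 in the mean and 0.0239 in the knockout, limma). Their part in the members' differences was not tested.

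Probe sets of the same gene did not always give the same strain difference. Of 12 members with more than 1 probe set above the filter, 7 had all of them on the same side of 0. Mobp was the clearest of these, with 4 probe sets between -0.30 and -0.41, and the second probe set of Ermn was at -0.21 (adjusted p = 0.301 over all probe sets, limma).

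Mbp had 8 probe sets, of which 1419646_a_at was lower in 129 by 0.49 on the log2 scale (-0.49, SE 0.08, adjusted p = 5.89e-05) and 1425263_a_at was higher by 0.55 (SE 0.10, adjusted p = 0.000186, limma over all probe sets). The first ran from 10.64 to 11.17 in C57 WT, 10.31 to 11.21 in C57 KO, 10.05 to 10.7 in 129 WT and 9.91 to 10.95 in 129 KO. The second ran from 7.27 to 8.19, 6.75 to 8.32, 7.86 to 8.43 and 8.09 to 8.48 in the same order. The remaining 6, including the brightest (1433532_a_at, used for the gene), lay between -0.17 and 0.03. Qk, at 0.00 by its brightest probe set, had 1 other of 7, 1425597_a_at, that was lower by 1.06 (-1.06, SE 0.19, adjusted p = 0.00025, limma), running from 5.09 to 6.9 in C57 WT, 5.31 to 7.56 in C57 KO, 4.58 to 5.52 in 129 WT and 4.97 to 5.54 in 129 KO. Counting any probe set, 7 members had at least 1 called lower in 129 and 1 member, Mbp, had 1 called higher. The members had 59 probe sets above the filter in all. Their count can therefore not be set against the 7.3% of all genes called from 1 probe set each, and no matching share is given.

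A further 78 genes of myelin and the oligodendrocyte lineage were listed, of which 69 were measured and 66 lay above the filter; the other 9 were not analysed here. None of the 66 passed between knockout and wild type in C57 or in 129 (limma). An unadjusted p under 0.05 was reached by 7 and 3 of them, against 833 and 279 of all 13078 genes (limma). Between strains, 3 passed in the wild type (4.55%, against 2.06% of all genes tested), of which 1 was higher in 129 and 2 lower. In the knockout 5 passed (7.58%, against 3.06%), 1 higher and 4 lower. In the mean of both 8 passed (12.1%, against 7.3%), 1 higher and 7 lower. Each of these counts of lower genes includes Galc, which was tested only because of its signal in C57. The median of the 66 in the mean was -0.06 and 46 were lower.

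The 7 lower genes include Galc, the lysosomal galactosylceramidase that degrades the lipid made by Ugt8a. It ran from 2.85 to 6.97 (median 5.79) in C57 WT and 2.6 to 7.05 (median 5.84) in C57 KO, but only from 2.65 to 3.14 (median 2.97) in 129 WT and 2.63 to 3.34 (median 3.03) in 129 KO. All arrays of 129 lay below the filter of 3.6, and some C57 arrays lay there too, so that Galc was tested only because of its signal in C57 and no size or p is given for its difference. Its other probe set above the filter was higher in 129, by 0.26 (SE 0.07, adjusted p = 0.0249 over all probe sets, limma).

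Cryab, the small heat shock protein alpha-B crystallin, ran from 7.59 to 9.09 (median 8.25) in C57 WT, 7.77 to 8.88 (median 8.21) in C57 KO, 7.56 to 8.24 (median 7.72) in 129 WT and 7.27 to 8.03 (median 7.49) in 129 KO, a mean difference of -0.60 (SE 0.12, adjusted p = 0.000473, limma). In the knockouts, 8 of 10 arrays of 129 lay below the lowest C57 array. In the wild types 1 of 9 did, and the difference there was -0.45 (adjusted p = 0.187, limma). The call of Cryab in the mean was lost within array set 2 alone (adjusted p = 0.117, limma). Id2, an inhibitor of differentiation, was at -0.31 (SE 0.06, adjusted p = 0.000569), and Ppp1r14a, an inhibitor of myosin phosphatase expressed in mature oligodendrocytes, at -0.42 (SE 0.12, adjusted p = 0.0193). In the knockouts Il33, a cytokine stored in nuclei of oligodendrocytes and astrocytes, was also lower (-0.34, SE 0.08, adjusted p = 0.00722). Sox11, a factor of immature cells of several lineages, was higher (0.68, SE 0.13, adjusted p = 0.000358), but its direction turned, to -0.21, when its probe sets were averaged.

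Apart from strain and genotype, the members were followed from array to array by their correlation with Mog over the 37 arrays, after each group's mean had been removed. Of the 28 other measured members, 15 (53.6%) correlated with it at an adjusted p under 0.05 (100000 permutations within groups, two-sided, adjusted over all 13077 other genes), all positively, against 0.749% of all genes. These were 9 of 10 myelin proteins, 3 of 4 lipid enzymes and 3 of 6 other members. None of the 6 transcription factors and neither progenitor receptor passed. Spearman's coefficient also gave 15 members.

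Mobp followed Mog most closely (r = 0.82, rho = 0.79, n = 37), then Mag (r = 0.82, rho = 0.77), Ermn (0.80 and 0.75), Mal (0.79 and 0.79) and Cldn11 (0.78 and 0.75), each with a permutation p of 1e-05, the smallest that 100000 permutations can give, and an adjusted p of 0.00436. Cnp (0.75), Mbp (0.69), Gjb1 (0.65) and Opalin (0.65) also passed, and Tspan2 (0.41, adjusted p = 0.217) did not. Of the lipid enzymes, Aspa (0.76), Ugt8a (0.71) and Fa2h (0.67) passed and Gal3st1 (0.46, adjusted p = 0.174) did not. Plekhb1 (0.75), Evi2a (0.64) and Gsn (0.58) passed among the others, whereas Car2 (0.54), Apod (0.53, adjusted p = 0.104) and Qk (0.04) did not.

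Of the transcription factors, Myrf came nearest (r = 0.63, rho = 0.57, permutation p = 0.0004, adjusted p = 0.0503), followed by Sox10 (0.53), Olig1 (0.36), Olig2 (0.30), Nkx2-2 (0.21) and Nkx6-2 (0.09). Pdgfra was at -0.03 and Cspg4 at -0.30 (permutation p = 0.0602, adjusted p = 0.358). The median over the 28 members was 0.64, with 0.77 for the myelin proteins, 0.69 for the lipid enzymes and 0.33 for the transcription factors.

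Within the array sets the median over the 28 members was 0.75 in set 1 and 0.55 in set 2, and it was 0.57 without the 2 arrays farthest from the median of Mog (C57 KO 3, which was 0.74 below its group's mean in Mog, and C57 KO 1, which was 0.63 above). Without those 2 arrays Mobp was at 0.78, Mag at 0.75 and Ermn at 0.76, and Sox10 fell to 0.38. Sox10 was at 0.73 in set 1 and 0.02 in set 2, and Gjb1 at 0.84 and 0.34, so that these depended on the set, while Mobp (0.84 and 0.85), Cldn11 (0.80 and 0.79) and Mbp (0.69 and 0.70) did not. Mog itself did not follow the difference between the 3 prime and 5 prime actin control probes (r = 0.13, p = 0.427; rho = 0.04, p = 0.823, permutation test, n = 37; r = 0.02 without the 2 arrays farthest in that difference).

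Of the 66 other genes of myelin and the lineage, 18 (27.3%) correlated with Mog, all positively, led by Gpr37 (0.86), S1pr5 (0.83) and Bcas1 (0.79), which encode 2 receptors and a protein of new myelinating cells. No marker of astrocytes, microglia, vessels, neurons or hippocampus passed by Pearson's coefficient, and 1 of 8 markers of striatal neurons did (Rgs9, r = 0.59, rho = 0.58, adjusted p = 0.0451), with a median of 0.44 over these 8. By Spearman's coefficient the astrocyte marker Aldh1l1 passed too (rho = 0.59, adjusted p = 0.0299; r = 0.55, adjusted p = 0.0544). Zic1, the region marker that was lower in 129, had r = 0.52 (adjusted p = 0.059) and rho = 0.53 (adjusted p = 0.0766). The part of other tissue and cell types in the co-variation was not tested.

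**Figure D5:**
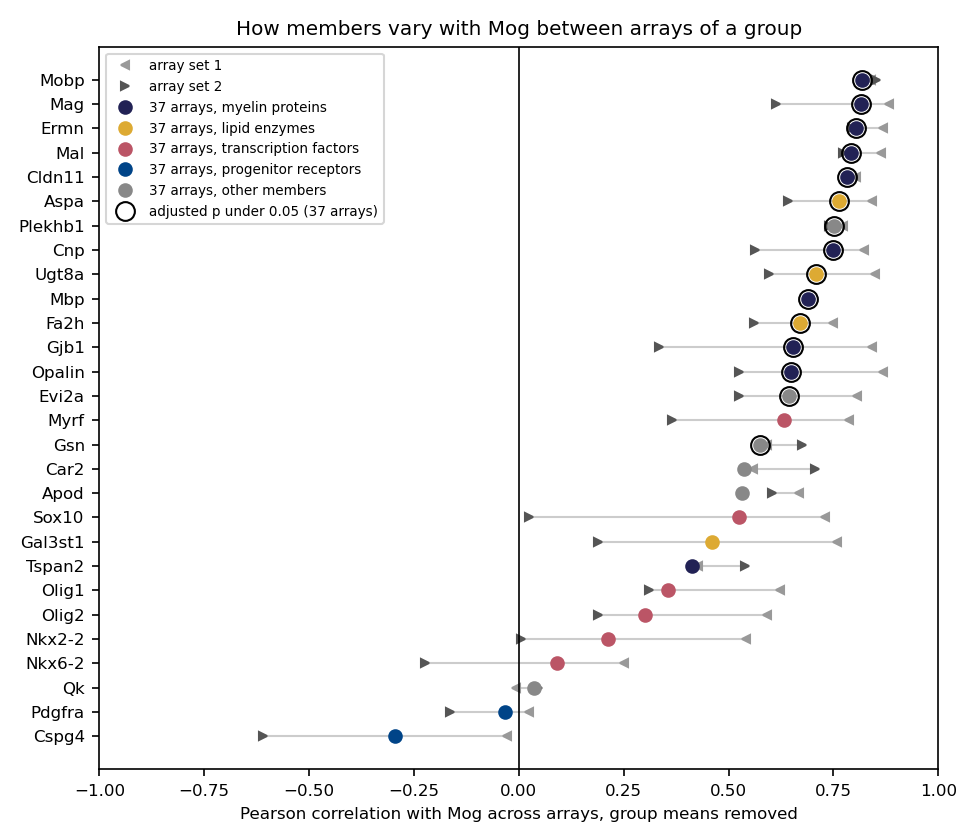
Large points give the Pearson correlation of each member with Mog over 37 arrays after group means were removed, coloured by role, and black rings mark an adjusted p under 0.05. Triangles joined by a line give the same within array set 1 (19 arrays, pointing left) and array set 2 (18 arrays, pointing right). Myelin proteins and lipid enzymes lie mostly above 0.6, transcription factors between 0.09 and 0.63 and the progenitor receptors at or below 0.

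Pairs of members showed the same order as a description, since all points share the same arrays. The median correlation was 0.65 over the 55 pairs of myelin proteins, 0.61 over the 44 pairs of a myelin protein and a lipid enzyme, 0.28 over the 66 pairs of a myelin protein and a transcription factor and -0.17 over the 22 pairs of a myelin protein and a progenitor receptor. Among the transcription factors themselves it was 0.22 over 15 pairs.

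The 10 genes outside the members with the pattern most like the mean of the 11 myelin proteins, over 37 arrays after removal of group means, were Septin4 (r = 0.92), Gpr37 (0.90), Bcas1 (0.87), Pde8a (0.86), Tmem63a (0.84), Litaf (0.83), S1pr5 (0.82), Plekhh1 (0.82), Efhd1 (0.80) and Tmem88b (0.80). Gpr37, Bcas1, Tmem63a, S1pr5 and Tmem88b were on the list of 78 and the other 5 were not. Septin4 encodes a septin, a filament protein of the cell cortex, and was at 0.94 in array set 1 and 0.88 in set 2. The most opposite gene was Gria3, an AMPA receptor subunit, at -0.62 (-0.62 in set 1 and -0.64 in set 2). These ranks are a description and were given no test.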

How the data were processed

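The samples were 37 Affymetrix arrays of total RNA from mouse temporal lobe, labelled as biotinylated cRNA with a one-cycle kit. The deposited values are log2 probe set summaries made by the authors, who name MAS5 and GCRMA in the submitters' processing notes; the version, role and order of these tools and the genome build are not given in the sources used here. They were used as deposited, without further scaling. Of 45101 probe sets, 34945 carry 1 gene symbol, 932 several and 9160 none in the platform annotation; probe sets with several symbols, among them that of Trf, were left out. Each gene was read from its brightest probe set. A gene was tested if its highest group mean reached the 40th percentile of probe set means (a log2 signal of 3.6). Signals of different probe sets were not compared as levels.

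Groups came from the titles. limma 3.58.1 (R 4.3.3) was fitted with 1 mean per group over all 37 arrays, with 7 contrasts and Benjamini-Hochberg adjustment over 13078 genes; fold changes are powers of the log2 difference. Correlations with Mog used 100000 permutations of arrays within groups (NumPy 2.4.6, SciPy 1.17.1) and were adjusted over all genes rather than over the members, as first planned. The fit and the correlation were tested on simulated data. Array numbers are not shared between groups. The array sets were found from the first principal component of 40 genes that are not members. Members, roles and gene lists were chosen with earlier results of these data known. All members are named, with up to 5 other lineage genes per comparison by size of difference, Galc, and the 10 genes most like the myelin proteins. Alternatives were other filters, normalizations, probe set rules, variance models and array weights, the array set as a block and each set alone, the actin difference as a covariate, and leaving out arrays. The number of arrays limits the precision.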

Additional observations from a re-analysis of the deposited data

Results flagged for a closer look

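Of 136 sets of values tested for a single array far from the rest of its group (29 members and 5 scores, in 4 groups), 8 had one, all of them signals of members, where chance gives about 1 in 20; they lay on 4 arrays. Array 129 WT 73 held 3 of them: its Cnp was the highest of its group at 11.31 (next 10.98), its Fa2h the highest at 8.03 (next 7.59) and its Tspan2 the lowest at 6.97 (next 7.43). That array also had the largest difference between the 3 prime and 5 prime actin probes, 2.76 on the log2 scale. Array 129 KO 59 held another 3: its Gal3st1 was the highest at 6.16 (next 5.82), its Evi2a the highest at 7.1 (next 6.48) and its Qk the lowest at 9.2 (next 9.61). Both are among the 3 arrays least like their groups. The Apod signal of C57 WT 42, 9.77, stood above the next, 9.04, and without this array Apod no longer passed between the wild types. The Aspa signal of 129 WT 72, 5.41, stood below the next, 5.94, and without this array the count of members called between strains in the mean was 2 rather than 6.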

How the results depend on the processing

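No member passed between knockout and wild type, in the mean or in the difference between strains under any alternative or without any single array (0 throughout), and the medians of the members stayed below 0: -0.133 to -0.068 in C57, -0.125 to -0.028 in 129, and between strains -0.168 to -0.104 in the mean of genotypes. Counts of members called between strains moved. In the wild type the count of 1 was 2 with every probe set, with array weights and without the 3 arrays least like their groups, and 0 within array set 1, within array set 2 and with the actin difference as a covariate; without single arrays it ran from 0 to 1. In the knockout the count of 1 was 0 with no filter, median centring, a trended and robust variance, only the groups compared, or array set 2 alone. It was 2 with the mean of probe sets or every probe set, and 4 without the 3 arrays. Without single arrays it ran from 0 to 3. Where the count stayed at 1 the member could change: within array set 1 it was Olig1 (adjusted p = 0.0477, limma). Nkx6-2 did not pass there or with quantile normalization. In the mean the count of 6 was 10 with array weights, 9 with the actin difference as a covariate, 3 within set 1 and 0 within set 2; without single arrays it ran from 2 to 9. A single set holds fewer arrays; the cause of the other changes was not tested. Sox11 turned to -0.147 (wild type), -0.263 (knockout) and -0.205 (mean) when its probe sets were averaged. The median correlation with Mog, 0.64, was 0.75 in set 1, 0.55 in set 2 and 0.57 without the 2 arrays farthest in Mog. The fit to only the groups compared does not apply to contrasts over all 4 groups. No paired analysis was possible because the groups share no sample numbers. The scale is log2 signal, and weak members such as Nkx6-2 lay near the filter. The difference of Nkx6-2 was not the least precise: its SE for knockout minus wild type in C57 was 0.09, against 0.15 for Apod. A small SE near the filter does not show that the signal was measured well.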
